A study of Mus musculus with 8 samples.

Results

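Genes of the basement membrane were followed in mouse embryonic stem (ES) cells given an esiRNA against Ctr9. They were the laminin chain genes Lama1, Lama5, Lamb1 and Lamc1, the type IV collagen chain genes Col4a1 and Col4a2, the nidogen genes Nid1 and Nid2, the perlecan gene Hspg2, and Sparc. The 10 genes were chosen by name, and every probe set annotated to exactly 1 of these symbols was taken, which gave 22 probe sets of 45037 tested and 10 genes of 18193. The series holds 8 Affymetrix arrays, 4 of cells given Ctr9 esiRNA and 4 of cells given luciferase esiRNA, the control for transfection. esiRNAs are short double-stranded RNAs cut enzymatically from a long transcript of the target, here delivered by lipofection. All cells carried the strain label Oct4-Gip at passage 25 and are labelled day 4, and Ctr9 encodes a subunit of the Paf1 complex, which accompanies RNA polymerase II during elongation.

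A basement membrane is a thin sheet of extracellular matrix on which epithelia rest. Laminins are secreted as trimers of an alpha, a beta and a gamma chain that assemble into a polymer at the cell surface, and type IV collagen, in its most widespread form a trimer of alpha1 and alpha2 chains, builds another network. Nidogens and perlecan connect the networks, and Sparc is a collagen-binding protein secreted with them. In the early mouse embryo parietal endoderm, which lines the mural trophectoderm, makes large amounts of them for Reichert's membrane, and visceral endoderm, which lies next to the epiblast, makes them too, as do ES cells in culture.

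Signals are log2 probe set values, so a difference of 1 is a doubling or a halving. Array medians lay between 5.74 and 5.76, and Pearson's r over probe sets was 0.992 to 0.994 for arrays of different treatments and 0.997 to 0.998 for arrays of the same one. The target gene Ctr9 did not pass on the brightest of its 5 probe sets, which read 10.11 ± 0.027 with Ctr9 esiRNA and 10.20 ± 0.058 with luciferase esiRNA (SD, n = 4 each; two-sided exact permutation p = 0.0857, with 0.0286 the lowest that 4 against 4 can give; limma, Benjamini-Hochberg adjusted p = 0.209). Its next 2 probe sets were lower, by limma differences of -0.15 (adjusted p = 0.0398) and -0.18 (0.0279), a dim one was higher by 0.29 (0.0228), and with the mean of all 5 the difference turned to 0.03. The arrays therefore do not show a clear loss of Ctr9 RNA, and the groups, and all directions given for them, rest on the labels. The ES cell markers were present: Pou5f1, Nanog, Sox2, Zfp42, Tdgf1 and Dppa5a all averaged at least 12.84 in both groups. Of 7 such markers, Esrrb (-1.10, SE 0.069), Zfp42 (-0.46, SE 0.052), Nanog (-0.44, SE 0.044) and Pou5f1 (-0.20, SE 0.042) fell, while Dppa5a (-0.09), Sox2 (-0.11) and Tdgf1 (0.01) did not pass. Among all genes 30.8% passed, 15% of them lower in the same count of all genes, and passing was commoner among bright genes (45.5%). Without luciferase arrays 3 and 4, 3 of the 7 markers were lower. Separate cultures are not stated in the labels, so a p-value here reflects the spread among 4 samples per treatment, and that spread may be technical.

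Col4a1 and Col4a2 lie head to head on chromosome 8, on opposite strands, with annotated 5′ ends that overlap. Their promoter windows from RefSeq (GRCm38.p6, 250 bases before to 50 after the start of the gene) share 78 bases, and the annotated first bases are 21 bases apart, each inside the other transcript. The shared stretch is thus made of the first transcribed bases of both genes. These sequences are shown because both genes that start in this stretch were higher with Ctr9 esiRNA, and the shared bases are in capitals, on opposite strands.
Col4a1 (chr8:11312777-11313076, minus strand): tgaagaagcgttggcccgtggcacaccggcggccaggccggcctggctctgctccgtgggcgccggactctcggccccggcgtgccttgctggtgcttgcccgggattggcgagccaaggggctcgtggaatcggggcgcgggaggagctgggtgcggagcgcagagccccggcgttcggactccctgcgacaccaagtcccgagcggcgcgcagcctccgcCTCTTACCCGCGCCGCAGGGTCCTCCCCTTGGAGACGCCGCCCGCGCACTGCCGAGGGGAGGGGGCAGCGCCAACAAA
Col4a2 (chr8:11312555-11312854, plus strand): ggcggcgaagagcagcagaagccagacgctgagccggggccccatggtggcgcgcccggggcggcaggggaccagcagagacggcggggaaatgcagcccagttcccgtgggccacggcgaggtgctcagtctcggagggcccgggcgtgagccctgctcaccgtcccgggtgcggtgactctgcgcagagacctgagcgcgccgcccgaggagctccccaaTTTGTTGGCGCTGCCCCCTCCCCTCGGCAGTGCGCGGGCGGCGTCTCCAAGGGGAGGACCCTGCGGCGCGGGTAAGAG
Windows of Lamb1, which was higher, and of Nid1, which was lower, are set beside them, here with each match to the GC box letters GGGCGG, or CCGCCC on the other strand, in capitals.
Lamb1 (chr12:31265043-31265342, plus strand): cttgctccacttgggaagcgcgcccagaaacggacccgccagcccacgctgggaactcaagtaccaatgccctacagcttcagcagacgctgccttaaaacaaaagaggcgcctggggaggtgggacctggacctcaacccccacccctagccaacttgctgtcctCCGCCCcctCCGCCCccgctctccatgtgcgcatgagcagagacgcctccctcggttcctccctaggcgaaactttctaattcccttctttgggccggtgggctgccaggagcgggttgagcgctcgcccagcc
Nid1 (chr13:13437352-13437651, plus strand): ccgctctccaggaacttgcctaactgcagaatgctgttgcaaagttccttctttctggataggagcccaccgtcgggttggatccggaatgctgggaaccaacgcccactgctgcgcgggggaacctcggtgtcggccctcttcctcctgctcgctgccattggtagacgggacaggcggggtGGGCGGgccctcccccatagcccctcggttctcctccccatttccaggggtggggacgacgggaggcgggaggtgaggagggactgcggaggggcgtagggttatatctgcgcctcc

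Of the 10 genes, 7 had a window in that table, and Lama1, Lamc1 and Nid2 did not. The search covered the GC box GGGCGG, the CCAAT box CCAAT and the TATA box TATAAA on both strands. GC boxes were found once in the Col4a1 window, at 3 places in that of Col4a2, at 2 in that of Lamb1 and at 1 in that of Nid1. The higher Lama5 had 4 and the lower Hspg2 had 5, while the window listed for Sparc had 0. Of the 78 bases that Col4a1 and Col4a2 share, 1 match to the GC box and 0 matches to the others were found. A CCAAT match was present once in each of the Col4a1, Col4a2, Lamb1 and Nid1 windows, and TATAAA was in 0 of the 7. Over all 32851 windows of this length, 35.7% held a GC box, 37.4% a CCAAT match and 13.6% TATAAA, and 10.7% held the GC box at 3 or more places. The 7 windows were also richer in G and C, at 55.3% (Sparc) to 74.0% (Col4a1), against a median of 52.7% over all windows. GC box letters were thus present in the windows of genes that were higher and of genes that were lower.

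The 10 genes did not move together. Read by the brightest probe set of each, 5 were higher with Ctr9 esiRNA (Col4a1, Lamb1, Col4a2, Sparc and Lama5) and 4 were lower (Lama1, Nid1, Lamc1 and Hspg2), by limma with Benjamini-Hochberg adjustment over the whole array at 0.05; Nid2 did not pass. Among all genes 30.8% passed (15.8% higher and 15% lower). Passing was commoner among bright genes, and 45.5% passed among the 6625 genes at least as bright as the dimmest of the 10. The median log2 difference was 0.09 over the 10 genes and 0.0036 over all genes. In all 10 genes the 4 values of one treatment did not overlap the 4 of the other, as for 36.6% of all genes and 58.4% of those 6625. Lama1 and Col4a1 changed by at least 1.5-fold, as did 5.01% of all genes. In cultured populations such as these, fewer cells making a transcript and less transcript per cell cannot be told apart.

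Over all 22 probe sets, 10 were higher, 6 lower and 6 did not pass, beside 24.9% passed among all probe sets (11.8% higher and 13.1% lower). Among those that did not pass, 3 (1 each for Lama5, Lamb1 and Nid1) read below the array median with luciferase esiRNA. In 15 of the 22 the groups did not overlap, beside 28.6% of all probe sets. Within each gene all probe sets had the same sign.

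**Figure D1:**
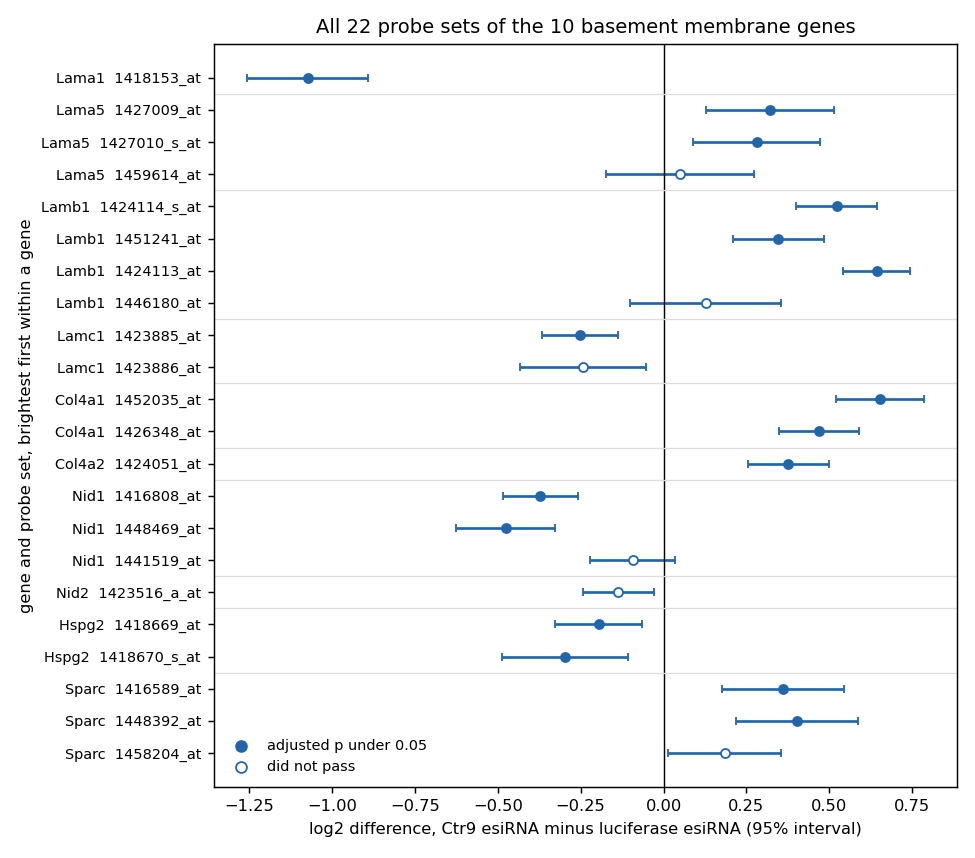
Log2 difference between 4 Ctr9 esiRNA and 4 luciferase esiRNA arrays for each of the 22 probe sets, with limma's 95% interval; filled points passed at an adjusted p of 0.05. The Lama1 probe set lies farthest to the left at -1.07, and the probe sets of Lamb1, Col4a1, Col4a2, Lama5 and Sparc all lie right of 0.

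Among the luciferase esiRNA arrays, 1 and 2 lay closer to each other than to arrays 3 and 4: deviations from the group mean correlated at -0.15 within each pair and at -0.46 to -0.40 across pairs. No label names a batch. The calls of Sparc, Lama5, Hspg2 and Lamc1 ended when 1 of these pairs was left out, and their values without that pair are given below. Leaving out a pair also leaves fewer arrays, and whether the split or the smaller number ended these calls was not tested.

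**Figure D2:**
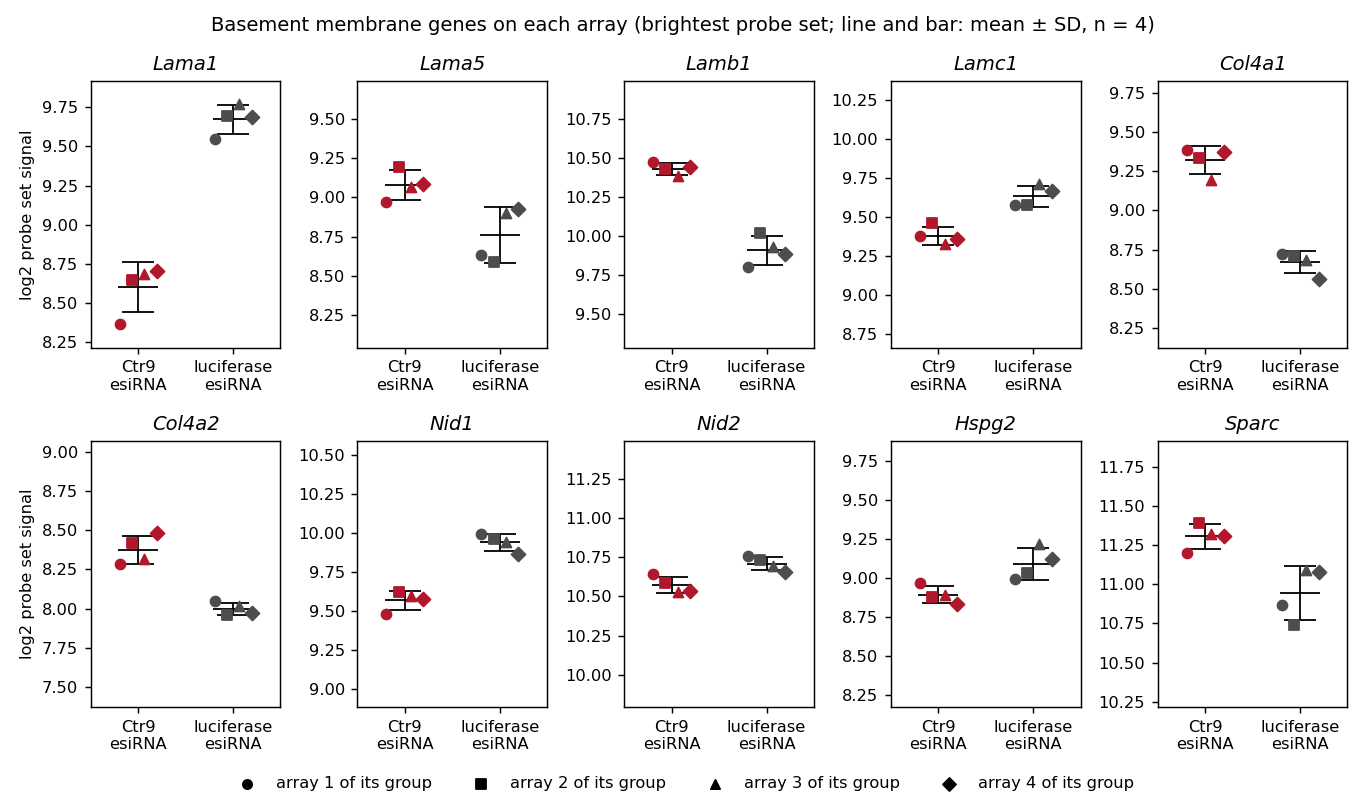
Log2 signal of the brightest probe set of each gene on every array, with Ctr9 esiRNA at the left of each panel and luciferase esiRNA at the right; all panels span the same range of log2 units, symbols give the array number and bars are the mean ± SD (n = 4). The 2 groups are farthest apart for Lama1 (mean 8.60 with Ctr9 esiRNA and 9.67 with luciferase esiRNA), and for Sparc and Lama5 luciferase arrays 3 and 4 sit nearer the Ctr9 esiRNA arrays than arrays 1 and 2 do.

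Among the laminin alpha chains, Lama1 fell and Lama5 rose. Lama1 encodes alpha1, the alpha chain of the laminin first isolated from a mouse tumour matrix and the main one of early embryonic basement membranes. Its 1 probe set read 8.36, 8.65, 8.69 and 8.71 in Ctr9 esiRNA arrays 1 to 4, against 9.55, 9.69, 9.77 and 9.69 in luciferase esiRNA arrays 1 to 4. All Ctr9 esiRNA arrays lay well below all luciferase arrays, and the lowest value of all was that of Ctr9 esiRNA array 1. The log2 difference was -1.07 (SE 0.082, limma adjusted p = 9.42e-06), which is a signal 2.10-fold lower with Ctr9 esiRNA. Only 60 of all genes (0.33%) fell by 2-fold or more with an adjusted p under 0.05, and 44 genes had a lower difference than Lama1. The fall passed the test under all 20 alternatives, with differences from -1.13 to -0.99.

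Lama5 encodes alpha5, the alpha chain of the laminin trimers that are widespread in later epithelia and that are used to coat dishes for pluripotent cells. Its brightest probe set read 8.97, 9.20, 9.07 and 9.09 with Ctr9 esiRNA, against 8.63, 8.59, 8.90 and 8.92 with luciferase esiRNA. The groups did not overlap, but luciferase arrays 3 and 4 came close to the lowest Ctr9 esiRNA array. The difference was 0.32 (SE 0.087, limma adjusted p = 0.0216), and the next brightest probe set rose by 0.28 (SE 0.086, limma adjusted p = 0.0377) with groups that overlapped. The dimmest, near 4.1 in both groups, differed by 0.05 and did not pass. Without luciferase arrays 1 and 2 the Lama5 difference was 0.17 (limma adjusted p = 0.153), and without arrays 3 and 4 it was 0.47 (0.00346). The call also ended without luciferase array 1 (0.0599), luciferase array 2 (0.056) or Ctr9 esiRNA array 2 (0.0612), within 0.00247 to 0.153 over 20 alternatives.

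The beta and gamma chains that both alpha chains share went in opposite directions. Lamb1, the beta1 chain gene, rose on 3 of its 4 probe sets. The brightest read 10.48, 10.43, 10.38 and 10.44 with Ctr9 esiRNA, against 9.80, 10.02, 9.93 and 9.88 with luciferase esiRNA, and no value of one group reached the other. The difference was 0.52 (SE 0.055, limma adjusted p = 7.56e-05), a 1.44-fold higher signal. The other Lamb1 probe sets that passed gave 0.35 (SE 0.062) and 0.64 (SE 0.045), so the size depended on the probe set while the direction did not. The dimmest, at 4.04 with Ctr9 esiRNA and 3.91 with luciferase esiRNA, differed by 0.13 and did not pass.

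Lamc1, the gene of the gamma1 chain found in most laminins, fell slightly. Its brighter probe set read 9.38, 9.46, 9.33 and 9.36 with Ctr9 esiRNA, against 9.58, 9.58, 9.71 and 9.67 with luciferase esiRNA. The groups did not overlap, and Ctr9 esiRNA array 2 came nearest to the luciferase arrays. The difference was -0.25 (SE 0.052, limma adjusted p = 0.00504), a change of -16.0%. The other probe set gave nearly the same difference, -0.24 (SE 0.085), but varied more between arrays and did not pass (limma adjusted p = 0.0634). Without luciferase arrays 3 and 4 the brighter one differed by -0.20 (limma adjusted p = 0.0534, within 0.000195 to 0.0534 over 20 alternatives).

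Both genes of the common type IV collagen rose. Col4a1 and Col4a2 encode its alpha1 and alpha2 chains. The brighter Col4a1 probe set read 9.39, 9.33, 9.19 and 9.38 with Ctr9 esiRNA, against 8.72, 8.71, 8.68 and 8.56 with luciferase esiRNA. Every Ctr9 esiRNA array was above every luciferase array. The difference was 0.65 (SE 0.059, limma adjusted p = 2.90e-05), 1.57-fold, and the other Col4a1 probe set rose by 0.47 (SE 0.054, limma adjusted p = 0.000135).

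The only Col4a2 probe set read 8.29, 8.42, 8.32 and 8.48 with Ctr9 esiRNA, against 8.05, 7.96, 8.02 and 7.97 with luciferase esiRNA, again without overlap. It rose by 0.38 (SE 0.055, limma adjusted p = 0.000636), 1.30-fold. The Col4a1 call held under all 20 alternatives (0.56 to 0.70). That of Col4a2 held under 19 of them, the exception being the requirement of a 1.5-fold change.

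The proteins that link and bind the networks were split. Nid1 encodes nidogen-1, which joins the laminin gamma1 chain to type IV collagen. Its brightest probe set read 9.48, 9.62, 9.59 and 9.58 with Ctr9 esiRNA, against 9.99, 9.96, 9.94 and 9.87 with luciferase esiRNA. The groups lay clear of each other, and Nid1 fell by 0.37 on the log2 scale (SE 0.051, limma adjusted p = 0.000414). On the next probe set Nid1 differed by -0.48 (SE 0.067, adjusted p = 0.000514 by limma). The dimmest, at 3.22 with Ctr9 esiRNA and 3.31 with luciferase esiRNA, differed by -0.09 and did not pass.

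Nid2 encodes the other nidogen. Its probe set read 10.64, 10.58, 10.53 and 10.54 with Ctr9 esiRNA, against 10.76, 10.73, 10.69 and 10.66 with luciferase esiRNA. The groups did not overlap, yet Ctr9 esiRNA array 1 and luciferase array 4 nearly met. The difference of -0.14 (SE 0.047, 95% interval -0.24 to -0.03) did not pass over the whole array (limma adjusted p = 0.0628). It did pass under 4 of 20 alternatives, over which the adjusted p ran from 0.00769 to 0.286.

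Hspg2 encodes perlecan, a large heparan sulfate proteoglycan. Its brighter probe set read 8.97, 8.88, 8.89 and 8.83 with Ctr9 esiRNA, against 8.99, 9.03, 9.22 and 9.12 with luciferase esiRNA. The highest Ctr9 esiRNA array and the lowest luciferase array nearly met. The difference was -0.20 (SE 0.060, limma adjusted p = 0.0357), and on the dimmer one Hspg2 fell by 0.30 (SE 0.085, limma adjusted p = 0.0278) with groups that overlapped. Without luciferase arrays 1 and 2 the difference was -0.28 (limma adjusted p = 0.0197). The Hspg2 call was the least stable of the 10 genes: it ended under 11 of 20 alternatives, all with the same sign. The adjusted p was 0.227 without luciferase arrays 3 and 4 (difference -0.12), 0.0899 without luciferase array 3, 0.0797 without luciferase array 4, 0.0784, 0.0738 and 0.0942 without Ctr9 esiRNA array 2, 3 or 4, 0.0606 after cyclic loess, 0.0501 after quantile normalization and 0.0766 with the replicate number as a block.

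Sparc encodes a secreted calcium- and collagen-binding glycoprotein abundant in basement membranes of the early embryo. Its brightest probe set read 11.20, 11.39, 11.32 and 11.31 with Ctr9 esiRNA, against 10.87, 10.74, 11.09 and 11.08 with luciferase esiRNA. Luciferase arrays 3 and 4 stood between luciferase arrays 1 and 2 and the Ctr9 esiRNA arrays, and the groups did not overlap. Sparc rose by 0.36 (SE 0.083, limma adjusted p = 0.00927), and by 0.40 on the next probe set (SE 0.082, limma adjusted p = 0.00501). The dimmest differed by 0.18 and did not pass. Without luciferase arrays 1 and 2 the difference of the brightest was 0.22 (limma adjusted p = 0.0547), and without arrays 3 and 4 it was 0.50 (0.00264).

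Whether partner genes changed unequally was read from the difference of their log2 signals within each array. The comparison covered 7 pairs, and in all 7 the groups did not overlap. For Lama1 with Lama5, Lama1 with Lamb1, Lamb1 with Lamc1 and Hspg2 with Sparc this follows from the single genes, which moved in opposite directions without overlap, so those shifts are given as a description with no test. For the 3 pairs of the same sign, Lama1 with Lamc1, Col4a1 with Col4a2 and Nid1 with Nid2, the exact two-sided permutation p was 0.0286, the smallest that 4 against 4 allows. Benjamini-Hochberg adjustment of the permutation p-values over all 7 pairs, including those only described, left 0.0286. It could not change them, since all 7 were at that lowest value. Levels of different probe sets are not comparable, so only the shift between the treatments is read. Lama1 minus Lama5 was -0.48 ± 0.115 with Ctr9 esiRNA and 0.91 ± 0.142 with luciferase esiRNA (SD, n = 4 each), a shift of -1.39. Lama1 minus Lamb1 shifted by -1.60, to -1.83 ± 0.192 with Ctr9 esiRNA, against -0.23 ± 0.072 with luciferase esiRNA. Relative to its gamma chain gene, Lama1 shifted by -0.82. Lamb1 minus Lamc1 was 1.05 ± 0.058 with Ctr9 esiRNA and 0.27 ± 0.109 with luciferase esiRNA, a shift of 0.78. The transcripts of the 3 chains of the alpha1, beta1, gamma1 trimer thus had 3 different changes: a large fall, a rise and a small fall.

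Genes whose differences had the same sign also differed in size. Col4a1 minus Col4a2 was 0.95 ± 0.103 with Ctr9 esiRNA and 0.67 ± 0.062 with luciferase esiRNA (SD, n = 4 each), a shift of 0.28. With the mean of both Col4a1 probe sets the shift was 0.18, and probe sets can respond unequally to the same change in RNA. Nid1 minus Nid2 shifted by -0.24, to -1.01 ± 0.106 with Ctr9 esiRNA, against -0.77 ± 0.017 with luciferase esiRNA. Between Hspg2 and Sparc, whose signs differed, the shift was -0.56. Every pair kept its sign when any 1 array or either pair of luciferase arrays was left out.

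**Figure D3:**
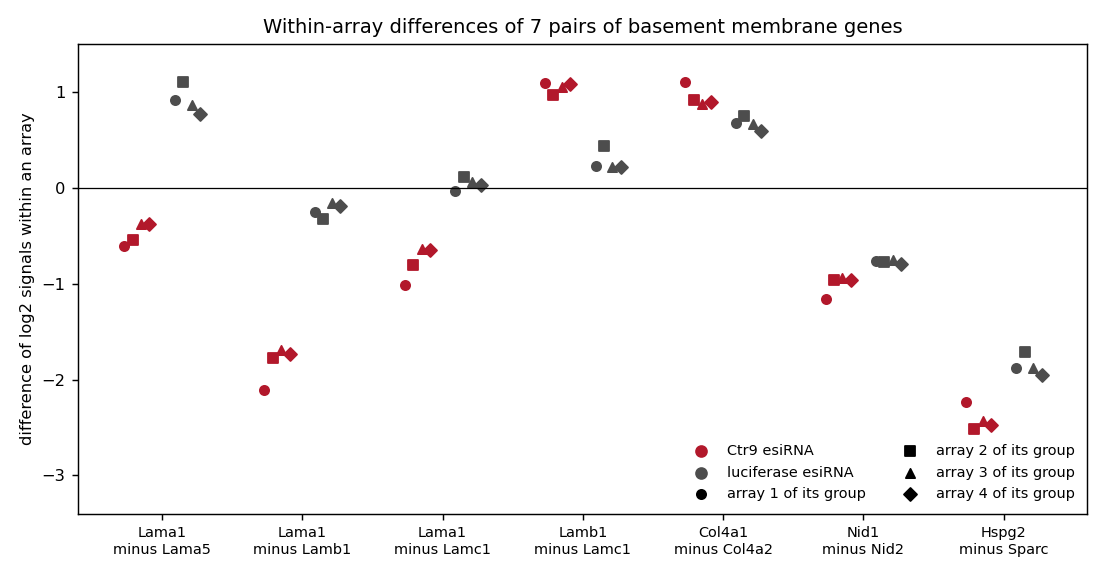
Difference of the log2 signals of 2 genes within each array, for 7 pairs, with Ctr9 esiRNA left and luciferase esiRNA right in each pair; each symbol is 1 array (n = 4 per group). No pair has overlapping groups, and the largest shift is that of Lama1 minus Lamb1 (-1.60).

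The remaining chains of both families were mostly dim, and 1 of them passed the test, beside 30.8% of all genes. Of 6 other laminin chain genes measured, 1 fell and 5 did not pass: Lama3, the alpha3 chain gene of epithelial laminin, fell by 0.34 (SE 0.086, limma adjusted p = 0.0155), a call that ended without luciferase arrays 3 and 4, while Lama4 (-0.17), Lamc3 (-0.07) and Lama2 (0.04) did not pass. Of the 4 other type IV collagen genes, Col4a3, Col4a4, Col4a5 and Col4a6, 0 passed by limma and 0 had an unadjusted p under 0.05, with differences from -0.03 to 0.08, and all 4 read below the array median with luciferase esiRNA.

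Of 18 genes of other basement membrane proteins measured, 7 were higher, 2 lower and 9 did not pass, at a median of 0.12. Among all genes 30.8% passed, and 45.5% among the 6625 bright genes described above. Differences in the list ran from -0.55 to 0.86. The genes named here are those with the smallest adjusted p, so they do not mirror the larger number of rises or include the largest. Col18a1, the gene of collagen XVIII, from which endostatin is cleaved, rose to 11.44 ± 0.058 with Ctr9 esiRNA, against 10.84 ± 0.117 with luciferase esiRNA (SD, n = 4 each), a difference of 0.59 (SE 0.064). Fbln1, which encodes fibulin-1, rose by 0.38 (SE 0.050). Ntn1, the laminin-related netrin-1 gene, fell by 0.55 (SE 0.058), and Smoc1, a calcium-binding relative of Sparc, fell by 0.40 (SE 0.045).

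Genes that fold, modify or cross-link collagen were likewise mixed, beside the same shares of all and of bright genes (30.8% and 45.5%). Of these 17 genes, 6 were higher, 3 lower and 8 not past the test, at a median of 0.06. Without luciferase arrays 1 and 2, or 3 and 4, 3 were higher. Pxdn encodes peroxidasin, the enzyme that forms sulfilimine cross-links in type IV collagen. It rose by 1.12 (SE 0.063, limma adjusted p = 1.40e-06, 2.17-fold), to 9.06 ± 0.094 with Ctr9 esiRNA, against 7.94 ± 0.087 with luciferase esiRNA (SD, n = 4 each). Crtap (-0.42, SE 0.050) and P3h1 (-0.43, SE 0.051), which form a prolyl 3-hydroxylase complex, fell, and P3h2, another prolyl 3-hydroxylase gene, rose by 0.35 (SE 0.074).

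On the cell side, 6 of 13 laminin and collagen receptor genes were higher, 3 lower and 4 did not pass, at a median of 0.15. These counts stand beside 30.8% passed among all genes and 45.5% among the 6625 bright genes described above. Ddr1, a receptor tyrosine kinase for collagen, rose by 1.05 (SE 0.052), the integrin genes Itga3 and Itgb1, whose products pair as a laminin receptor, by 0.83 (SE 0.062) and 0.53 (SE 0.048), and the dystroglycan gene Dag1 by 0.38 (SE 0.044). The 3 that fell were Ddr2, the other collagen receptor tyrosine kinase gene (-0.41, SE 0.055), the syndecan gene Sdc4 (-0.35, SE 0.071) and Itga6, whose product is the alpha chain of another laminin-binding integrin (-0.21, SE 0.046). Itga6 read 11.39 ± 0.049 with Ctr9 esiRNA and 11.61 ± 0.039 with luciferase esiRNA (SD, n = 4 each). Receptors related in kind thus went in both directions.

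**Figure D4:**
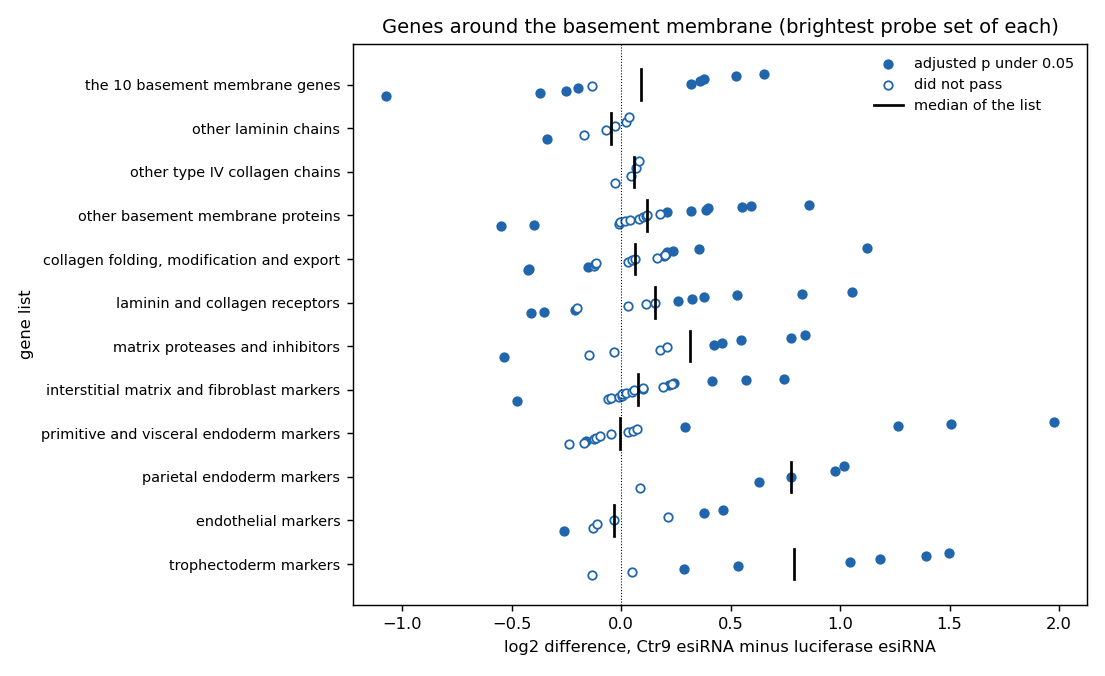
Log2 difference (Ctr9 esiRNA minus luciferase esiRNA) of each measured gene in the 10 basement membrane genes and 11 lists around them, read by the brightest probe set; filled points passed at an adjusted p of 0.05 and bars are list medians. The 10 genes spread from -1.07 to 0.65, with passed members on both sides of 0.

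Markers of other cell types that make basement membrane were read beside these values. Their counts stand beside the 30.8% of all genes that passed, and those of the primitive and visceral endoderm, endothelial and interstitial lists are close to it or rest on few genes. Those of the parietal endoderm and trophectoderm lists also rest on few genes, 5 and 8. Parietal endoderm markers rose in 4 of 5 cases: Fst by 1.02 (SE 0.063), Pth1r by 0.98 (SE 0.111), Plat by 0.77 (SE 0.133) and Snai1 by 0.63 (SE 0.091), while Thbd differed by 0.09 and did not pass. With luciferase esiRNA 4 of the 5 read below the array median, and their summed linear signal was 325 to 355 with Ctr9 esiRNA and 189 to 208 with luciferase esiRNA. Of 14 primitive and visceral endoderm markers, 4 rose, 1 fell and 9 did not pass, at a median of -0.0076; without luciferase arrays 1 and 2, or 3 and 4, 0 fell. Foxa2 (1.98, SE 0.169), Lrp2 (1.51, SE 0.094), Dab2 (1.26, SE 0.073) and Amn (0.29, SE 0.060) rose. The marker that fell was Hnf4a (-0.16, SE 0.051, limma adjusted p = 0.041), whereas the lineage regulators Gata4 (0.07), Gata6 (-0.12) and Sox17 (-0.24) did not pass. Gata4 read 5.71 ± 0.099 with Ctr9 esiRNA and 5.64 ± 0.089 with luciferase esiRNA, and Gata6 read 4.92 ± 0.125 with Ctr9 esiRNA and 5.04 ± 0.111 with luciferase esiRNA (SD, n = 4 each), both below the array medians. The summed linear signal of that list was 1388 to 1486 with Ctr9 esiRNA and 962 to 1018 with luciferase esiRNA. Most of the difference between these sums came from the probe sets of Lrp2, Dab2 and Foxa2.

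Trophectoderm markers rose in 6 of 8 cases and 2 did not pass, led by Plac1 (2.82-fold), Cdx2 (1.39, SE 0.094), Gata3 (1.18, SE 0.127) and Krt7 (1.04, SE 0.074), with a summed linear signal of 1856 to 2075 with Ctr9 esiRNA and 1533 to 1952 with luciferase esiRNA. Most of that sum came from the probe set of Tfap2c, which did not pass (-0.13). Of 7 endothelial markers, Flt1 (0.47, SE 0.062) and Esam (0.38, SE 0.068) rose, Tek fell by 0.26 (SE 0.053) and 4 did not pass, among them Cdh5 (0.21), with summed signals of 459 to 479 with Ctr9 esiRNA and 443 to 482 with luciferase esiRNA. Of 18 interstitial matrix and fibroblast genes, 5 rose, 1 fell and 12 did not pass. Col5a2 (0.74, SE 0.093), Dcn (0.57, SE 0.123) and Twist1 (0.41, SE 0.057) rose, and the fibronectin gene Fn1 fell by 0.48 (SE 0.055, n = 3 with Ctr9 esiRNA, where 1 value was empty). Summed over that list, with the empty Fn1 value replaced by the mean of its group, the linear signal was 3851 to 3904 with Ctr9 esiRNA and 4504 to 4867 with luciferase esiRNA. Most of it came from the probe set of Fn1, the gene of the list that fell. No background level was measured here, so no marker can be called absent, and the part of such cells in the changes of the 10 genes was not tested.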

How the data were processed

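Biotin-labelled RNA of 8 samples was hybridised, 1 array a sample. What the authors deposited are log2 signals, for which the submitters' processing notes name GCOS 1.4 and RMA and no settings. RMA gives all arrays alike distributions, which hides a shift common to every gene, and it compresses differences of low signals.

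The 64 manufacturer's control probe sets were left out. Symbols came from the platform annotation, updated through Entrez identifiers (GRCm38.p6 gene table, names only): 34945 probe sets had 1 symbol, 932 several and 9160 none. Each gene was read by the brightest of its 1-symbol probe sets (mean of 8 arrays). The 22 probe sets of the 10 genes had 0 empty values.

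The treatments were compared with limma 3.58.1 in R 4.3.3 (lmFit, eBayes) over 45037 probe sets, with Benjamini-Hochberg adjustment called at 0.05; standard errors (SE) are limma's, moderated. Exact permutation tests used SciPy 1.17.1, two-sided, and figures matplotlib 3.10.9. Promoter windows are RefSeq's.

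The 10 genes, the other gene lists and the alternatives were chosen with earlier results of these data known. Named are the 10 genes, Ctr9, all ES cell markers and up to 4 genes per list with the smallest adjusted p. Gata4, Gata6, Sox17, Hnf4a, Thbd, Ddr2, Sdc4, Itga6, Timp2, Timp3 and Tfap2c were added after their values were seen. Alternatives were a filter on dim probe sets, 3 scalings, other priors and weights, a replicate block, stricter thresholds, leaving out arrays, and means over probe sets. Same-numbered arrays of the 2 groups did not deviate together (correlations -0.078 to 0.063). No pairing by number was thus seen, but these values cannot exclude it. The main fit left the arrays unpaired. The number of arrays limits the precision.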

Additional observations from a re-analysis of the deposited data

Results flagged for a closer look

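Among 58 groups of 4 values, 4 held a value far from the other 3, and chance alone gives this in about 1 in 20 such groups. Lama1 in Ctr9 esiRNA array 1, at 8.36, lay below the other 3 Ctr9 esiRNA arrays (8.65 to 8.71), and without that array the Lama1 difference was -0.99. The second brightest Nid1 probe set in Ctr9 esiRNA array 2, at 8.21, lay above the other 3 Ctr9 esiRNA arrays (7.99 to 8.02). Lamb1 minus Lamc1 in luciferase array 2, at 0.44, lay above the other 3 luciferase arrays (0.218 to 0.224). Nid1 minus Nid2 in Ctr9 esiRNA array 1, at -1.16, lay below the other 3 (-0.96 to -0.94).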

How the results depend on the processing

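All 10 genes kept their direction under 20 alternatives, and all 7 pair shifts under 12. With an adjusted p under 0.01, 3389 probe sets of the whole array were higher and 3611 lower. With an adjusted p under 0.05 and a change of at least 1.5-fold, these were 961 and 726. Among the 10 genes 1 was then higher (Col4a1) and 1 lower (Lama1), with 2 probe sets higher and 1 lower. Leaving out luciferase arrays 1 and 2 left 3 of the 10 genes higher, without Lama5 and Sparc. Leaving out luciferase arrays 3 and 4 left 2 lower, without Lamc1 and Hspg2, and 3 of the 22 probe sets lower. Without any 1 array, 4 to 5 genes were higher and 3 to 5 lower. The cause of these losses was not tested, beside the smaller number of arrays. With the replicate number as a block, 5 genes were higher and 3 lower, since Hspg2 lost its call (limma adjusted p = 0.0766); no other of the 10 calls changed. The Ctr9 difference turned to 0.027 with the mean of its probe sets; the cause was not tested. With 1 array left out, an exact permutation test of 4 against 3 cannot go below p = 0.0571, so pair shifts were then compared by value only. Differences of low signals are compressed, which limits what the dim probe sets can show.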

Other observations

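Genes that cut or protect the matrix also differed between the treatments. Of 10 measured, 5 were higher with Ctr9 esiRNA, 1 was lower and 4 did not pass, at a median log2 difference of 0.32, beside 30.8% of all genes that passed in either direction. Among the 5 is Plat, which is also counted above as a parietal endoderm marker. Adamts1, a secreted proteoglycan-cleaving protease, rose by 0.84 (SE 0.106), the membrane-bound protease gene Mmp14 by 0.55 (SE 0.061), and Mmp2, whose product MMP14 activates and which cleaves type IV collagen, by 0.42 (SE 0.047). Timp1, an inhibitor of such proteases, fell to 8.85 ± 0.116 with Ctr9 esiRNA, against 9.39 ± 0.029 with luciferase esiRNA (SD, n = 4 each), a difference of -0.54 (SE 0.061, limma adjusted p = 0.000125). Of the related inhibitor genes, Timp2 was higher by 0.46 (SE 0.066, adjusted p = 0.000553 by limma) and Timp3 differed by 0.21 and did not pass. These counts did not change when luciferase arrays 1 and 2, or 3 and 4, were left out.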
